A study of Homo sapiens with 4 samples.

Results

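The 44 genes described here encode the proteins that carry glucose into the cell, break it down to pyruvate and lactate, and feed pyruvate into the mitochondrial tricarboxylic acid (TCA) cycle. They were chosen by symbol, and all 44 were found among the 23622 genes of the table, 25 for glucose uptake, glycolysis and lactate and 19 for pyruvate dehydrogenase and the TCA cycle. The libraries were made from RNA of MV4-11, an established human line of acute myeloid leukemia (AML), with a control hairpin (sh-NC, n = 2 libraries) or with knockdown of IRF1, an interferon-responsive transcription factor (sh-IRF1, n = 2 libraries). The study asked which genes depend on IRF1 in AML cells. All 4 libraries carry the wild-type genotype label, and per the study's methods the hairpins were delivered in a lentiviral pLKO.1 vector with puromycin selection, in RPMI 1640 medium with serum. The labels describe the control libraries as untreated while their titles mark them as negative controls, and the hairpin behind each sh-IRF1 library was not given in the sources used here. The labels do not say whether the 2 libraries of a group came from separate cultures, so the spread behind the p-values below may be technical. That spread was mostly shared over all tested genes (43 prior degrees of freedom) and came little from a gene's own 2 libraries per group.

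Glycolysis runs in the cytosol. Glucose enters through carriers of the SLC2A family, is trapped as a phosphate by hexokinase, is committed to breakdown by phosphofructokinase, and leaves the pathway as pyruvate, which lactate dehydrogenase can turn into lactate for export by SLC16A carriers. Pyruvate that enters mitochondria is turned into acetyl-CoA by the pyruvate dehydrogenase complex, which its kinases switch off, and the TCA cycle then oxidizes acetyl-CoA. Leukemia cells are known for heavy use of glucose, and many of these genes are known targets of MYC and of the hypoxia-inducible factors (HIF).

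Values are normalized counts, that is, reads per gene divided by 1 size factor per library. The libraries held between 17635908 and 18695337 reads, and mitochondrial genes took between 3.92% and 4.51% of them. IRF1 itself had normalized counts of 785 and 738 in the sh-NC libraries and 430 and 432 in the sh-IRF1 libraries, or 56.6% of the sh-NC mean. Fold changes are differences of log2(normalized count + 1), sh-IRF1 minus sh-NC, with the standard error (SE) and adjusted p of limma over the 14120 genes that passed a filter on low values, and a gene was called at an adjusted p under 0.05. All 15 myeloid markers listed had reads in the table, and their summed normalized counts were 52943 and 53085 in sh-NC and 48407 and 48469 in sh-IRF1. FLT3 made up most of that gap (17402 to 12690 in the group means), while other myeloid markers went both ways, with CD14 (-2.81 on the log2 scale), MPO (-1.42) and FCGR1A (-0.57) lower and LYZ (0.85), ITGAM (0.64) and CSF2RA (0.44) higher. Markers of B cells summed to 100.5 and 130 in sh-NC and to 254 and 315 in sh-IRF1, mostly from CD79A. T and NK cell markers summed to between 2075 and 2181, nearly all from NCAM1 and NKG7, while CD3G and CD8A were at or near 0. ITGA2B of the megakaryocyte markers was lower (-1.04), and NEFM of the HEK293 markers was at or near 0. KRT8 of the epithelial markers was higher (0.57), while KRT18 of the same list was not called (0.18). Named pseudogenes of KRT8 had normalized counts equal to 44.6% of those of KRT8, so the KRT8 level is uncertain. The part of these shifts in the results below was not tested. In RNA from bulk cells, fewer cells of a type and less RNA per cell cannot be told apart.

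All 44 genes passed the filter. After IRF1 knockdown 20 of them fell and 9 rose, while 15 were not called. Among all tested genes 21.9% were called lower and 20.3% higher, so the share of genes called higher (20.5%) was near that background and the share called lower (45.5%) was above it. The median fold change was -0.10 for glucose uptake, glycolysis and lactate and -0.09 for pyruvate dehydrogenase and the TCA cycle, beside -0.0019 for all tested genes. The called genes of the 2 branches were also alike in count, with 11 lower and 5 higher of 25 in the first, and 9 lower and 4 higher of 19 in the second. Abundant genes were called more often. Of the 4227 tested genes with a mean of at least 1000 normalized counts 38.6% were lower and 28.1% higher. Of the 27 genes of the pathway at that level 17 fell (63.0%) and 6 rose (22.2%). Most changes were small. A fold change beyond 0.5 was reached by 2 genes that rose, PFKFB4 and SLC16A3, and by 2 that fell, SLC2A3 and PDK1, beside 8.27% of all tested genes higher and 7.56% lower.

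**Figure D1:**
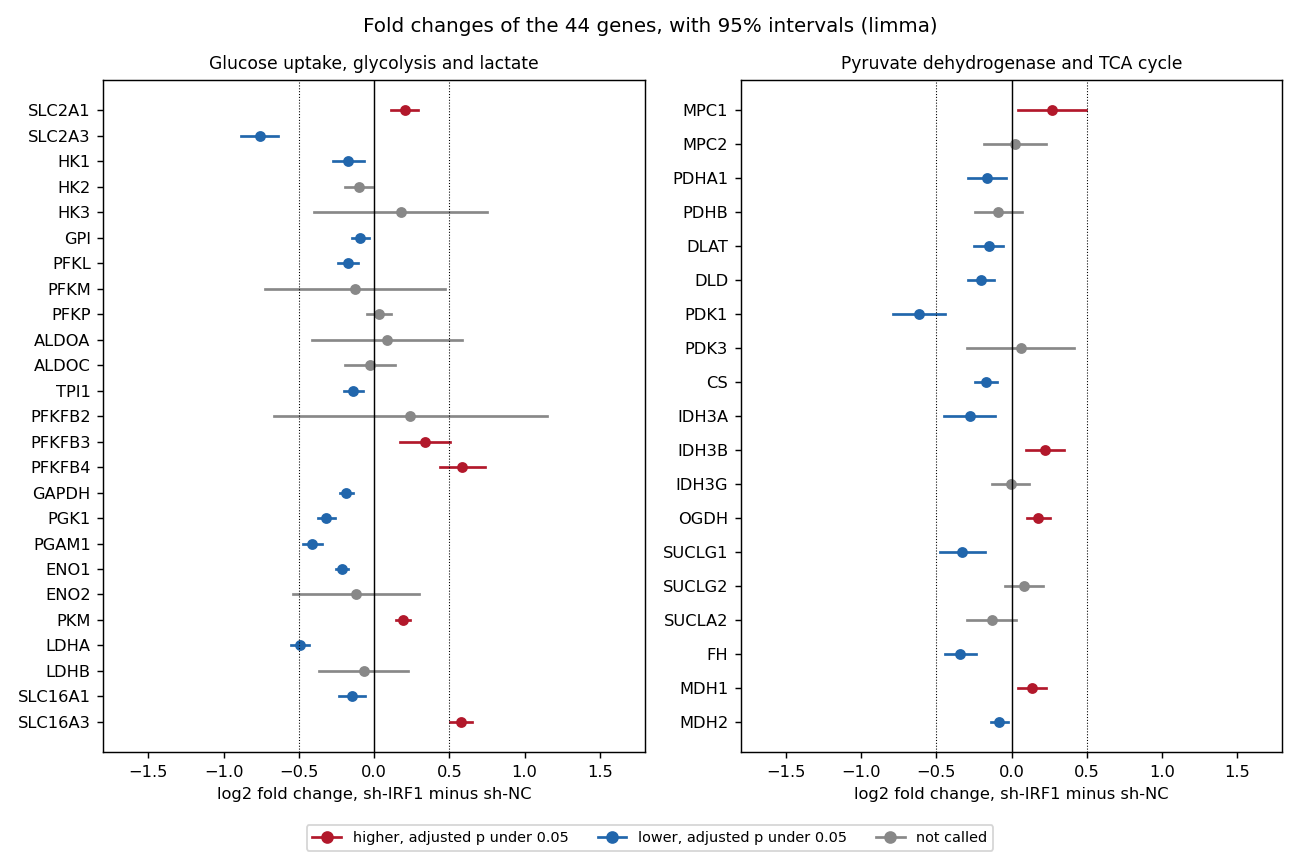
Log2 fold change of each of the 44 genes (sh-IRF1 minus sh-NC) on the horizontal axis, with 95% intervals from limma, in pathway order; glucose uptake, glycolysis and lactate are at the left, and pyruvate dehydrogenase and the TCA cycle at the right. Colours mark genes called higher, lower or not called, and dotted lines mark 0.5 in either direction, which SLC2A3 (-0.76), PDK1 (-0.62), PFKFB4 (0.59) and SLC16A3 (0.58) passed.

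Because several of these genes are known to be switched on by HIF through the core motifs ACGTG and GCGTG, and by MYC or MondoA through CACGTG, the RefSeq promoter windows (GRCh38.p14, 250 bases before to 50 after a gene's start) were searched on both strands. A window was found for 40 of the 44 genes. SLC2A3, OGDH, PFKFB2 and SLC16A1 had no entry. Shown are the stretches upstream of the canonical start, 5′ to 3′ on the gene's strand, for the genes with the largest changes that had a window, and for LDHA, the abundant enzyme with the largest fall. Capitals mark ACGTG or GCGTG on either strand, and for PDK1 and PFKFB4 the 30 bases around the matches are given.
SLC16A3, chr17:82228792-82229041, plus strand: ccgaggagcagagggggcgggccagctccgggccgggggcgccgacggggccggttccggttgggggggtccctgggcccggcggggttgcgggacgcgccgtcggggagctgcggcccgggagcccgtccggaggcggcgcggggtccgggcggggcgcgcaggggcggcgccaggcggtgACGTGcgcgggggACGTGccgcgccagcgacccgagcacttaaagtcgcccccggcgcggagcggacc
LDHA, chr11:18394313-18394562, plus strand: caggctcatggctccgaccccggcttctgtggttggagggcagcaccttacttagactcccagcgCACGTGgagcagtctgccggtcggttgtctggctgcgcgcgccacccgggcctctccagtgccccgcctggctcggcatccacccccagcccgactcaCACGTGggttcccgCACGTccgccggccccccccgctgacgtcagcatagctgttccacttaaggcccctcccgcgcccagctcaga
PDK1, chr2:172556060-172556089, plus strand: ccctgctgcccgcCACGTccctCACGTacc
PFKFB4, chr3:48556952-48556981, minus strand: tgagttgggcatGCGTGgtcggaggccggg

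SLC16A3 and PFKFB4, which rose, and LDHA and PDK1, which fell, all held such a match. LDHA also held 2 copies of CACGTG, a palindrome that contains ACGTG on both strands. In any of a gene's windows, ACGTG or GCGTG was found for 33 of the 40 genes (82.5%), beside 52.4% of all 27305 genes with a window. By call, the match was there for 7 of 8 genes that rose, 15 of 18 that fell and 11 of 14 that were not called. CACGTG was found for 7 of the 40 genes (17.5%), beside 8.78% of all genes. A pair of GAAA with any 2 bases between them, which interferon regulatory factors are known to bind, was found for 1 of the 40 (2.5%), beside 4.38% of all genes. These shares were not adjusted for base composition or for the number of windows of a gene. There were 35116 windows for the 27305 genes, while SLC16A3 had 5, LDHA and PDK1 had 2 each and PFKFB4 had 1. A match describes the letters in the window and does not show binding.

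The glucose carriers moved in opposite directions. SLC2A3 (GLUT3; ENSG00000059804, chr12:7919230-8019007, hg38), a carrier with high affinity for glucose, had normalized counts of 1679 and 1694 in sh-NC and 1008 and 985 in sh-IRF1. The groups did not overlap, and SLC2A3 fell to 59.1% of the sh-NC mean (log2 fold change -0.76, SE 0.061, adjusted p = 1.60e-14), the largest fall of the 44 genes. SLC2A14, its near-identical neighbour, had between 14.4 and 24.9 normalized counts, and how reads that match both were counted was not given in the sources used here. SLC2A1 (GLUT1; ENSG00000117394, chr1:42925353-42958893), the basal carrier of most cells, had 2696 and 2858 in sh-NC and 3250 and 3145 in sh-IRF1. It rose to 115% of sh-NC with no overlap of the groups (0.20, SE 0.045, adjusted p = 1.87e-04). Per kilobase of exon, SLC2A1 made up 64.3% ± 0.81 of the sum of both carriers in sh-NC and 77.9% ± 0.12 in sh-IRF1 (shares here and below are means ± SD, n = 2).

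Of the hexokinases that trap glucose, HK1 fell (-0.17, adjusted p = 0.00585) and the fall was not called without sh-NC replicate 1 (-0.09) or sh-IRF1 replicate 1 (-0.13). HK2, the hexokinase often induced in tumours, had 3108 and 3286 in sh-NC and 2927 and 3029 in sh-IRF1. These groups did not overlap, yet HK2 missed the threshold (-0.10, SE 0.044, adjusted p = 0.0580). HK3, a myeloid hexokinase, lay between 42.1 and 70.3 normalized counts and its groups overlapped. Per kilobase, HK2 made up 58.6% ± 3.3 of the hexokinases in sh-NC and 59.5% ± 0.52 in sh-IRF1, a difference within the spread of the libraries. By canonical transcript length HK1 was the larger at 54.3% in sh-NC, with HK2 at 44.3%, so the order of these 2 depends on the length used.

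In upper glycolysis 3 of 7 genes fell (42.9%) and none rose, beside 21.9% lower and 20.3% higher of all tested genes. Of those with a mean of at least 1000 normalized counts, a level that all 3 reached, 38.6% were lower and 28.1% higher. GPI, the isomerase that makes fructose phosphate, fell by 0.09 (adjusted p = 0.00661), PFKL, the liver-type phosphofructokinase, fell by 0.17 (adjusted p = 2.53e-05) and TPI1, which interconverts the triose phosphates, fell by 0.14 (adjusted p = 2.61e-04). Without sh-IRF1 replicate 2 neither GPI (-0.08) nor TPI1 (-0.10) was called. PFKP, the platelet-type phosphofructokinase, had 3962 and 3899 in sh-NC and 4051 and 3996 in sh-IRF1 and was not called (0.03, adjusted p = 0.524). Per kilobase, PFKP took 35.9% ± 0.0100 of the phosphofructokinases in sh-NC and 39.2% ± 0.90 in sh-IRF1, PFKL falling from 63.6% to 60.3%, while the muscle form PFKM had only between 45.9 and 53.3 normalized counts. Of the aldolases, which split fructose bisphosphate, ALDOC (653 to 691) was not called. ALDOA was not called either, and its 64.7 to 87.1 normalized counts are uncertain as a level, since 54.2% of its exonic bases are shared with other genes in the annotation, of which ENSG00000285043 had between 70.9 and 94.4.

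The PFKFB enzymes make and remove the fructose bisphosphate isomer that activates phosphofructokinase, and 2 of the 3 rose, beside 20.3% of all tested genes. PFKFB4 (ENSG00000114268, chr3:48517684-48562015) had normalized counts of 714 and 682 in sh-NC and 1010 and 1090 in sh-IRF1. Every sh-IRF1 value lay above both sh-NC values, and PFKFB4 rose to 150% (0.59, SE 0.075, adjusted p = 8.01e-09), the largest rise of the 44 genes. PFKFB3, the isozyme whose kinase activity dominates, had 700 and 622 in sh-NC and 810 and 860 in sh-IRF1. It too rose without overlap, to 126% (0.34, SE 0.082, adjusted p = 6.45e-04). PFKFB2 had between 14.4 and 27.7 normalized counts, with overlapping groups. The summed normalized counts of the 3 genes were 138% of sh-NC, while those of upper glycolysis were 92.9%.

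Lower glycolysis, from GAPDH to pyruvate kinase, held the most abundant transcripts of the set, and 4 of its 6 genes fell (66.7%). Of all tested genes with a mean of at least 1000 normalized counts 38.6% were lower. ENO1 (enolase 1; ENSG00000074800, chr1:8861000-8879190), which had the most normalized counts of the 44 genes, had 51346 and 51032 in sh-NC and 44203 and 44266 in sh-IRF1. The libraries of each group lay close together and the groups far apart, and ENO1 fell to 86.4% of sh-NC (-0.21, SE 0.020, adjusted p = 2.60e-12). PGAM1, the phosphoglycerate mutase, had 10918 and 10262 in sh-NC and 8035 and 7886 in sh-IRF1, a fall to 75.2% (-0.41, adjusted p = 4.67e-15). PGK1, the kinase that makes the first ATP of the pathway, fell to 80.2% (-0.32, adjusted p = 4.78e-13) and GAPDH, the dehydrogenase before it, to 87.9% (-0.19, adjusted p = 7.34e-10). GAPDH, PGK1, PGAM1 and ENO1, which encode enzymes of 4 consecutive steps, were thus each lower in sh-IRF1. GAPDH, often used as a reference gene, had 39779 and 40628 normalized counts in sh-NC and 35708 and 34972 in sh-IRF1, and 17.6% of its exonic bases overlap another gene. The neuronal enolase ENO2 had between 90.5 and 113 normalized counts and was not called.

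Pyruvate kinase PKM (ENSG00000067225, chr15:72199029-72231819), the last step of glycolysis, went the other way, with 26880 and 27249 normalized counts in sh-NC and 31006 and 30745 in sh-IRF1. The groups did not overlap and PKM rose to 114% (0.19, SE 0.023, adjusted p = 1.48e-09). Gene counts do not separate the spliced forms of PKM. Over the 6 genes of lower glycolysis the summed normalized counts in sh-IRF1 were 90.7% of those in sh-NC.

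**Figure D2:**
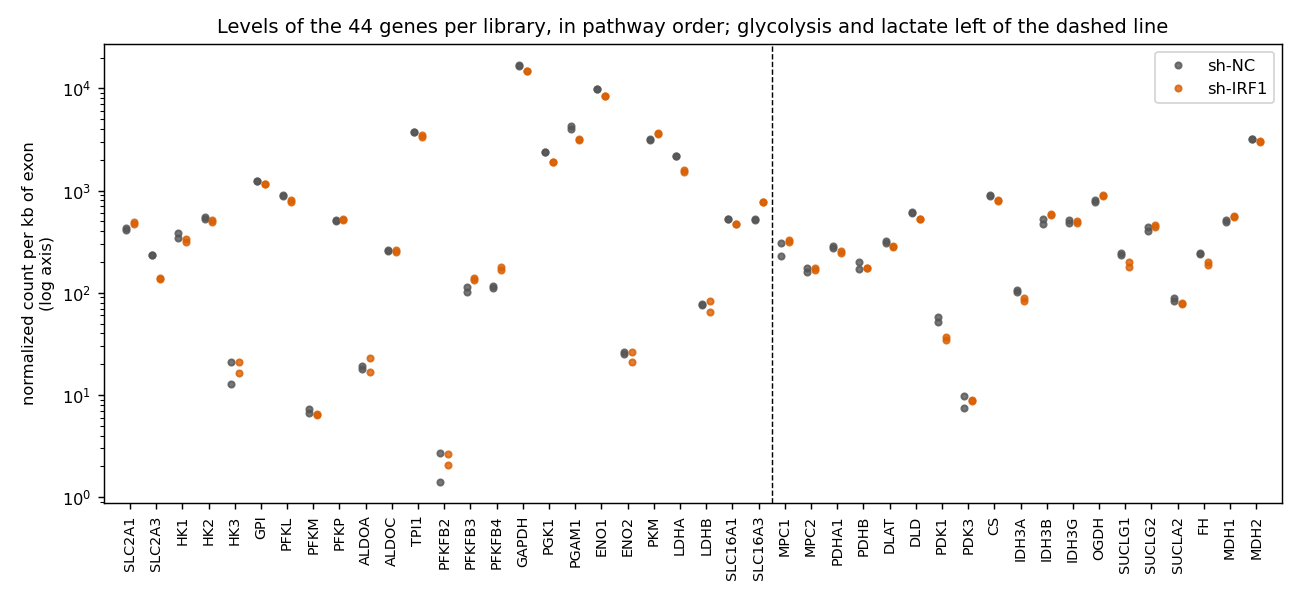
Normalized count per kilobase of exon (vertical log axis) of the 44 genes in pathway order, with 1 point for each of the 2 sh-NC (grey) and 2 sh-IRF1 (orange) libraries. Levels run from PFKFB2 at the bottom (2.07 in sh-NC) to GAPDH at the top (16779 in sh-NC), and the 2 groups stay close for most genes beside that range.

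LDHA (lactate dehydrogenase A; ENSG00000134333, chr11:18394560-18408425), which turns pyruvate into lactate, had normalized counts of 13173 and 13222 in sh-NC and 9498 and 9249 in sh-IRF1. The groups lay far apart for the spread within them, and LDHA fell to 71.0% of sh-NC (-0.49, SE 0.029, adjusted p = 3.23e-19), the smallest adjusted p of the 44 genes. LDHB, whose product favours the reverse reaction, had only 234 and 226 in sh-NC and 194 and 247 in sh-IRF1, with overlapping groups. LDHA remained most of the family at 96.6% ± 0.089 of both genes per kilobase in sh-NC and 95.5% ± 0.82 in sh-IRF1. Of LDHB's exonic bases 33.4% overlap another gene, so its level and these shares are uncertain.

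The carriers that move lactate across the plasma membrane moved in opposite directions, as the glucose carriers did. SLC16A3 (MCT4; ENSG00000141526, chr17:82217934-82261129), known for lactate export from glycolytic cells, had 4918 and 4720 in sh-NC and 7181 and 7196 in sh-IRF1. It rose without overlap to 149% (0.58, SE 0.035, adjusted p = 1.03e-18). SLC16A1 (MCT1; ENSG00000155380, chr1:112911847-112957593), which carries lactate both ways, had 3322 and 3316 in sh-NC and 2979 and 3018 in sh-IRF1. It fell to 90.4% (-0.15, SE 0.043, adjusted p = 0.00440), and was not called without sh-IRF1 replicate 1 (-0.14). The share of SLC16A3 in both carriers per kilobase went from 49.9% ± 0.69 to 62.2% ± 0.18, and by canonical transcript length from 67.7% to 77.6%.

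**Figure D3:**
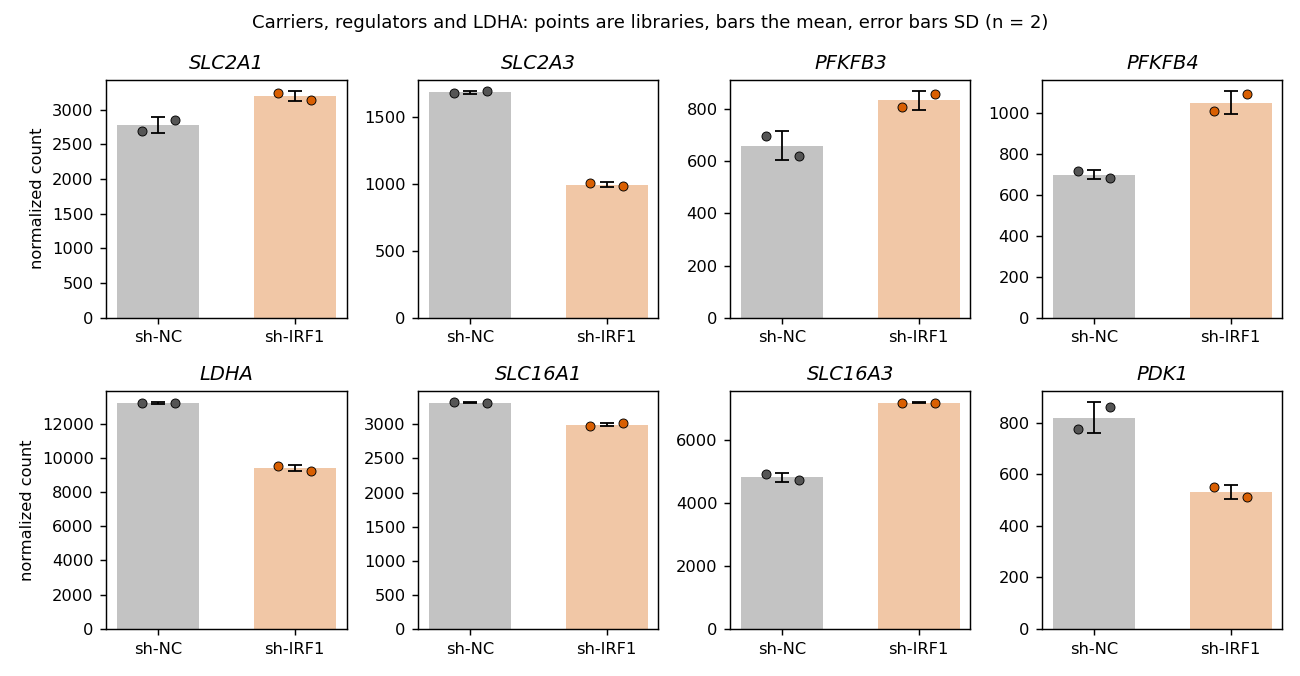
Normalized counts (vertical axis, from 0) of the glucose carriers, PFKFB3, PFKFB4, LDHA, the lactate carriers and PDK1, with points for the libraries, bars for the group mean and error bars for the SD of 2 libraries. The sh-IRF1 mean lies above the sh-NC mean for SLC2A1, PFKFB3, PFKFB4 and SLC16A3 and below it for SLC2A3, LDHA, SLC16A1 and PDK1.

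Of the 2 genes for entry of pyruvate into mitochondria 1 was called. MPC1, a subunit of the mitochondrial pyruvate carrier, had 477 and 351 in sh-NC and 504 and 482 in sh-IRF1, and its rise was at the threshold (0.27, SE 0.11, adjusted p = 0.0494). The lower sh-NC library set most of that difference, for the fold change was 0.05 without sh-NC replicate 2, and MPC1 was not called either without sh-IRF1 replicate 1 (0.23) or replicate 2 (0.30), nor by DESeq2 (adjusted p = 0.173). MPC2, the other subunit, was not called (0.02), with 425 to 460 normalized counts over both groups.

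The set held 4 subunit genes of the pyruvate dehydrogenase complex, which all had lower means in sh-IRF1. Of these, 3 were called lower, beside 21.9% of all tested genes and 38.6% of those with a mean of at least 1000 normalized counts. DLD, the subunit shared with other dehydrogenase complexes, fell by 0.20 (adjusted p = 1.47e-04), DLAT, the acetyl-transfer subunit, fell by 0.15 (adjusted p = 0.00952) and PDHA1, the catalytic alpha subunit, fell by 0.16 (adjusted p = 0.0278). PDHB, the beta subunit, was not called (-0.09, adjusted p = 0.374). PDHX, a further subunit gene that is not among the 44, fell to 79.6% (-0.33, adjusted p = 0.00176). Single libraries decided part of this, since DLAT was not called without sh-NC replicate 2 (-0.13) or sh-IRF1 replicate 1 (-0.14), nor PDHA1 without sh-NC replicate 1 (-0.13), sh-IRF1 replicate 1 (-0.14) or sh-IRF1 replicate 2 (-0.19). The summed normalized counts of the 4 genes were 89.0% of sh-NC.

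PDK1 (ENSG00000152256, chr2:172555373-172608669), a kinase that inactivates the complex and a known HIF target, had 777 and 862 normalized counts in sh-NC and 552 and 513 in sh-IRF1. Both sh-IRF1 libraries lay below both sh-NC libraries, and PDK1 fell to 65.0% (-0.62, SE 0.086, adjusted p = 5.46e-08). PDK3, a kinase of the same family, lay between 130 and 170 with overlapping groups. Together with PDK2 (331 and 321 in sh-NC, 350 and 342 in sh-IRF1, not called), PDK1 made up 44.7% ± 1.7 of the kinases per kilobase of exon in sh-NC and 33.2% ± 0.76 in sh-IRF1. By canonical transcript length these shares were 24.1% and 16.5%.

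**Figure D4:**
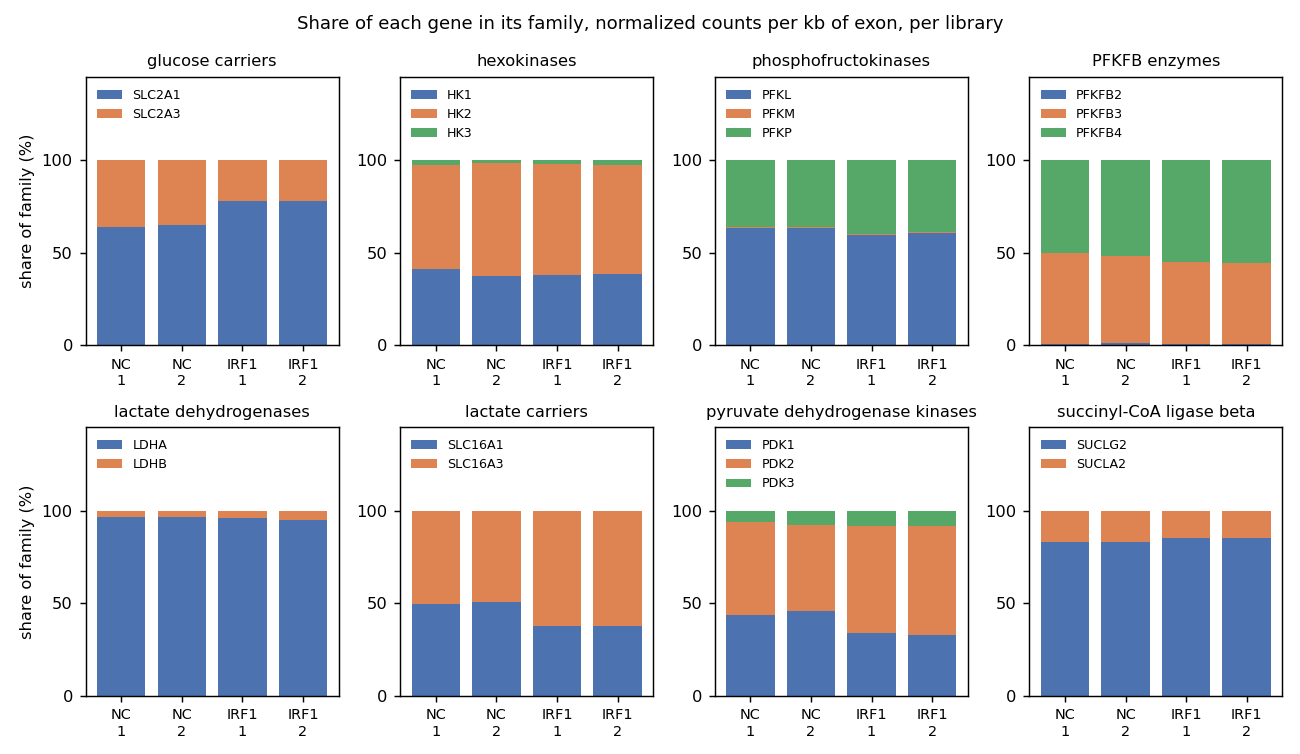
Share of each gene (vertical axis, percent) in the sum of its family, from normalized counts per kilobase of exon, in each of the 4 libraries. The share of SLC2A1 and of SLC16A3 is higher and the share of PDK1 lower in both sh-IRF1 libraries. LDHA holds most of the lactate dehydrogenases in all 4, though the level of LDHB is uncertain.

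In the TCA cycle 5 of 11 genes fell (45.5%) and 3 rose (27.3%), and no change passed 0.5. Of all tested genes 21.9% were lower and 20.3% higher. Of those with a mean of at least 1000 normalized counts 38.6% were lower and 28.1% higher, near the shares in the cycle. FH (fumarase) had 2263 and 2305 in sh-NC and 1849 and 1759 in sh-IRF1, a fall to 79.0% (-0.34, SE 0.051, adjusted p = 2.74e-07). SUCLG1, the alpha subunit of succinyl-CoA ligase, fell to 79.8% (-0.33, adjusted p = 3.46e-04) and CS, the citrate synthase that starts the cycle, to 88.8% (-0.17, adjusted p = 1.02e-04). The beta subunits of succinyl-CoA ligase, SUCLG2 (0.08) and SUCLA2 (-0.13), which set the use of GTP or ATP, were not called. The share of SUCLG2 per kilobase was 83.1% ± 0.25 in sh-NC and 85.1% ± 0.0076 in sh-IRF1. By canonical transcript length it was only 60.6% and 64.1%, so its size depends on the length used. OGDH, a subunit of the oxoglutarate dehydrogenase complex, had 4059 and 4167 in sh-NC and 4631 and 4664 in sh-IRF1. It rose to 113% with no overlap (0.18, SE 0.038, adjusted p = 1.67e-04).

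Subunits of 1 enzyme of the cycle, and a pair of its isozymes, had opposite calls. The NAD-dependent isocitrate dehydrogenase is built from the products of IDH3A, IDH3B and IDH3G. IDH3A, its catalytic subunit (chr15:78131498-78171945), had 700 and 731 in sh-NC and 608 and 571 in sh-IRF1 and fell (-0.28, SE 0.085, adjusted p = 0.00655). IDH3B (chr20:2658395-2664219) had 1366 and 1214 in sh-NC and 1512 and 1490 in sh-IRF1 and rose (0.22, SE 0.062, adjusted p = 0.00321), while IDH3G was not called (-0.01, adjusted p = 0.958). Neither call held without sh-NC replicate 2 (-0.25 for IDH3A and 0.14 for IDH3B), nor did that of IDH3A without sh-IRF1 replicate 2 (-0.23) or that of IDH3B without sh-IRF1 replicate 1 (0.21), and 38.8% of IDH3A's exonic bases overlap other genes. Of the malate dehydrogenases, cytosolic MDH1 (chr2:63588609-63607197) had 2590 and 2478 in sh-NC and 2819 and 2757 in sh-IRF1 and rose (0.14, SE 0.046, adjusted p = 0.0129). Mitochondrial MDH2 (chr7:76048051-76067508), the enzyme of the cycle itself, had 11562 and 11536 in sh-NC and 10992 and 10840 in sh-IRF1 and fell (-0.08, SE 0.029, adjusted p = 0.0199). Without sh-IRF1 replicate 1 or 2 neither MDH1 (0.12 and 0.15) nor MDH2 (-0.09 and -0.07) was called, and MDH1 was not called without sh-NC replicate 2 (0.11).

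Summed over all 44 genes, the reads were 1.40% of each sh-NC library and 1.33% of each sh-IRF1 library. In summed normalized counts the sh-IRF1 mean was 91.6% of sh-NC for glucose uptake, glycolysis and lactate and 94.9% for pyruvate dehydrogenase and the TCA cycle. The largest parts of these sums were those of ENO1, GAPDH and PKM in the first branch and that of MDH2 in the second.

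Lists of further genes of the same pathways, chosen with earlier results of these data known, were then counted in the same fit. Of their 118 genes 87 were tested, with 29 lower (33.3%) and 18 higher (20.7%), beside 21.9% lower and 20.3% higher of all tested genes. The share called higher was near that background. Of 7 other hexose carriers 1 fell, SLC2A5, a fructose carrier (2642 and 2544 in sh-NC, 1359 and 1384 in sh-IRF1, log2 fold change -0.92, adjusted p = 8.98e-20), and 1 rose, SLC2A13 (0.51, adjusted p = 0.0116). Of 15 other glycolytic and side-branch genes 1 fell, FBP1 of gluconeogenesis (-0.79, adjusted p = 0.0463), and 3 rose, with PGM2L1 highest (1.20, adjusted p = 2.73e-06). Of 9 other lactate genes 3 fell and 2 rose. Among those that fell were EMB, a chaperone of SLC16A carriers (-0.89, adjusted p = 3.60e-27), and LDHD, a lactate dehydrogenase for the D form (-1.38, adjusted p = 0.00788). BSG, a further chaperone of these carriers, was among those that rose (0.30, adjusted p = 3.83e-13). It had 16265 and 15479 normalized counts in sh-NC and 19812 and 19305 in sh-IRF1. Among 11 other genes around pyruvate dehydrogenase 3 fell and 2 rose. PCK2 (-0.67, adjusted p = 8.37e-19) and PC (-0.65, adjusted p = 1.96e-07), which lead from the cycle towards gluconeogenesis and from pyruvate into the cycle, were beyond 0.5. Among 24 other genes of the cycle and its shuttles 8 fell and 7 rose, with GLUD1 (-0.52, adjusted p = 6.87e-16) and GOT1 (-0.62, adjusted p = 8.64e-07), which link the cycle to glutamate and aspartate, lower.

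Of 15 genes of the HIF pathway that were tested, known partly as hypoxia-induced genes and partly as its regulators, 9 fell (60.0%) and 2 rose (13.3%). Of all tested genes 21.9% were lower and 20.3% higher. Of those with a mean of at least 1000 normalized counts 38.6% were lower and 28.1% higher. That level was reached by HIF1A, VEGFA, BNIP3L, NDRG1, VHL, KDM3A and DDIT4, which fell, HIF1AN, which rose, and ARNT, which was not called. The median of the list was -0.39. The list was chosen with earlier results of these data known, so its shares are no independent support. Its genes with the smallest p beyond 0.5 were DDIT4 (-1.38, adjusted p = 3.48e-26), VEGFA (-0.91, adjusted p = 1.16e-20), KDM3A (-0.90, adjusted p = 5.12e-15) and P4HA1 (-1.15, adjusted p = 5.98e-15), all lower. Those that rose were EPAS1, which encodes another HIF alpha subunit (0.75, adjusted p = 0.0348), and HIF1AN, an inhibitor of HIF (0.42, adjusted p = 3.99e-08). EPAS1 was low, with 48.2 and 32.9 normalized counts in sh-NC and 75.6 and 60.9 in sh-IRF1. HIF1A had 1831 and 1865 in sh-NC and 1405 and 1407 in sh-IRF1 and fell (-0.39, adjusted p = 7.47e-08). EPAS1, HIF1AN, HIF1A, BNIP3L, NDRG1, VHL and ARNT were named here after their values were seen. Of the 6 genes of MYC and MondoA glucose sensing 4 fell and 1 (TXNIP) rose, with MYC at 51.2% of sh-NC (-0.97, adjusted p = 1.03e-29) and MLXIPL at 21.4% (-2.18, adjusted p = 1.62e-08). MLXIPL was low, with 103 and 123 normalized counts in sh-NC and 23.9 and 24.4 in sh-IRF1. MLXIP, the gene of MondoA itself, was not called (0.05, adjusted p = 0.440). Whether the falls of LDHA, PDK1 and SLC2A3 follow from those of HIF1A or MYC was not tested. Nor was any link of HIF1A or MYC to the rises of SLC16A3 (0.58), PFKFB4 (0.59), PFKFB3 (0.34) and SLC2A1 (0.20).

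**Figure D5:**
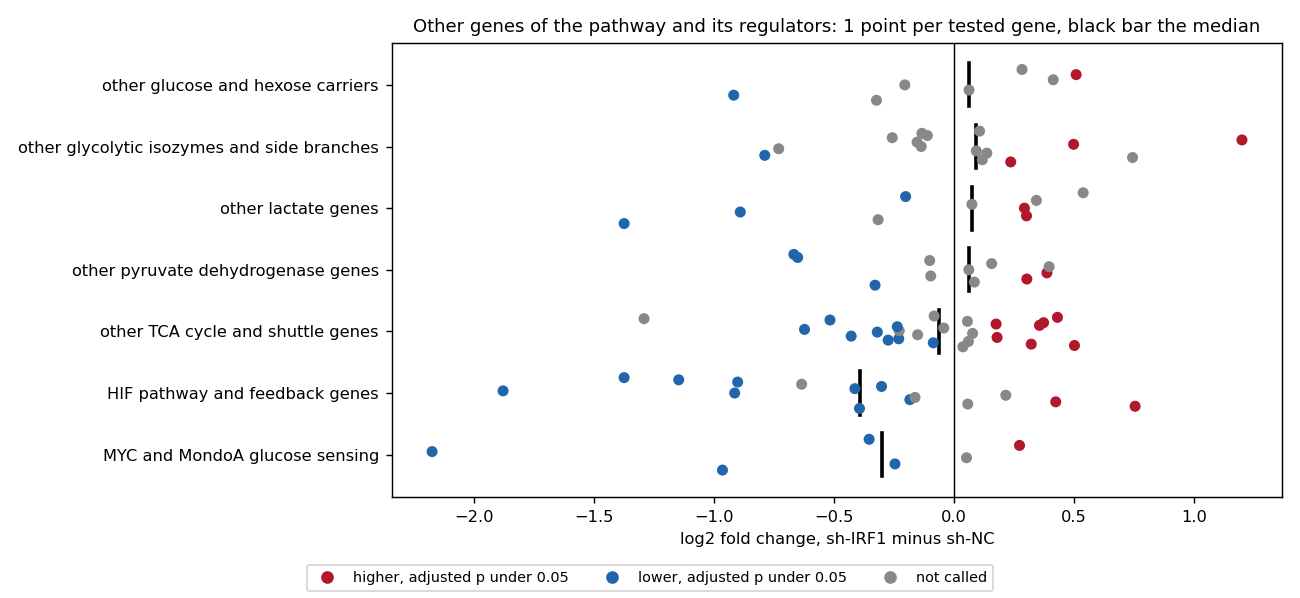
Log2 fold change (horizontal axis, sh-IRF1 minus sh-NC) of each tested gene in 7 lists of related genes, with colours for genes called higher, lower or not called and a black bar at the median of each list. The HIF list (median -0.39) and the MYC and MondoA list (-0.30) lie to the left of 0, and the other lists have medians between -0.06 and 0.09.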

How the data were processed

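RNA of 4 MV4-11 libraries was sequenced by a service company from 1 ug of total RNA with an Illumina TruSeq kit. The submitters' processing notes name HISAT2 2.0.5 and hg38, and the study names FPKM and DESeq2. The counting tool, annotation and use of strand were not given in the sources used here. The deposited values are a signal in which the authors had divided each library's reads by a single size factor of that library. Whole reads were recovered for 100% of values (largest distance from a whole read 4.43e-05). Symbols matched 23456 of 23622 identifiers, and 0 columns of other samples were present.

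Groups came from the sample titles. The main test was limma 3.58.1 (R 4.3.3; trend, robust) on log2(value + 1), on genes that reached 10 in 2 or more libraries, with Benjamini-Hochberg adjustment over all tested genes. Differences of log2(value + 1) understate the change of low genes. The spread was shared over genes with 43 prior degrees of freedom. An exact permutation test of 2 against 2 libraries cannot go below p = 0.333 and was not used. All 44 genes are named by rule. Genes beyond 0.5, the most abundant gene and pairs with opposite calls get every library's value, and from each list of further genes at most 4 beyond 0.5 are named, except 1 that is not reported here. HIF1A, EPAS1, HIF1AN, BNIP3L, NDRG1, VHL, ARNT, TXNIP, MLXIP, PDHX and BSG were added after their values were seen. So were single cell type markers and the values per library of other genes. The genes and lists were chosen with earlier results of these data known.

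Exon lengths, positions and overlaps came from GENCODE 44. Over 10% of exonic bases were shared with another gene for 8 of the 44 genes (ALDOA, IDH3A, LDHB, MPC2, PDHA1, GAPDH, DLAT and ALDOC), whose reads are uncertain. For 10 genes with named pseudogenes in the table, those reads amounted to no more than 1.79% of the reads of the gene itself. Alternatives were TMM, upper quartile and total read scaling, other filters and pseudocounts, no robust shrinkage, a replicate block, edgeR 4.0.16 and DESeq2 1.42.0 on recovered reads, canonical transcript length, and leaving out each library. Scripts were tested on simulated data.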

Additional observations from a re-analysis of the deposited data

How the results depend on the processing

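No fold change of a called gene turned its direction under any setting. Of the 29 calls, 18 were kept in every setting, among them SLC2A3, SLC2A1, PFKFB3, PFKFB4, LDHA, SLC16A3, PKM and PDK1, and 5 were lost in a setting with all 4 libraries. MPC1 was lost with TMM scaling, without robust shrinkage and with DESeq2, PDHA1 with DESeq2 and total read scaling, and GPI, DLAT and MDH2 with total read scaling, which moved the median of all genes by 0.044 and the median of the 25 glycolysis genes from -0.10 to -0.0573, that of the 19 pyruvate dehydrogenase and TCA cycle genes from -0.09 to -0.0455, and the calls over all genes from 2861 higher and 3092 lower to 3433 higher and 2645 lower. Among the 44 genes more were still lower than higher under it (10 and 5, and 6 and 4, in the 2 branches). edgeR called 29 of the 44 genes and DESeq2 27. A fold change beyond 0.5 as an added condition left 1168 of 2861 genes higher and 1067 of 3092 lower over all tested genes, 2 higher and 1 lower among the glycolysis genes, and 0 higher and 1 lower among the pyruvate dehydrogenase and TCA cycle genes.

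Leaving out 1 library, where the lone library of a group is assumed to vary like the other group and fewer samples raise the p-values by construction, gave 21 to 28 called genes. The count of pyruvate dehydrogenase and TCA cycle genes called higher ranged from 1 to 4, with 1 without sh-NC replicate 2 or sh-IRF1 replicate 1, and 2 without sh-IRF1 replicate 2. With a replicate block 30 genes were called, all 29 and HK2 (adjusted p = 0.0426). Libraries with the same number did not deviate together (correlation -0.0154), so the numbers were not taken to pair the samples. By canonical transcript length the change in share was smaller for PDK1 (-7.65 against -11.5 points) and SLC16A3 (9.89 against 12.3 points). With 2 libraries per group, changes of genes under about 100 normalized counts (HK3, PFKM, PFKFB2, ALDOA) had intervals too wide to bound a small change.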
